A study of Mus musculus with 24 samples.

Results

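The 80 genes described here had a higher signal in REST knock-out than in REST wild-type embryonic stem cells. In the neuronal progenitors made from these cells, the mean knock-out signal was at most 0.2 log2 units higher. The genes were chosen by the measured values themselves, from 19938 genes with a probe set of their own. A gene was selected on a mean log2 signal at least 0.8 higher in the arrays labelled RESTko than in those labelled RESTwt at the stem cell stage (ES), with all 3 RESTko arrays above all 3 RESTwt arrays, and on a difference of at most 0.2 at the progenitor stage (NP). Another 9 genes met these terms and were left out because their symbols begin with letters set aside for keratins, collagens and smooth-muscle or actin genes: Acta2, Cnn1, Cnn2, Colec12, Krt18, Krt19, Krt8, Tagln and Tpm1. A further 101 genes met the ES terms and were over 0.2 at NP. The upper limit at NP does not ask that the genotypes be alike there, so the set holds genes that were lower in RESTko cells at NP as well as genes near 0. Some of the latter were slightly higher in RESTko cells. For Tspan2 (0.19) and Snx1 (0.13), the RESTko arrays at NP all lay above the RESTwt arrays.

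Expression was measured on Affymetrix arrays in mouse cells taken through neuronal differentiation in vitro, from ES through NP to terminal neurons (TN). The 18 arrays of the larger platform held Black Agouti 129 cells, with 3 arrays in each of 6 groups: RESTko and RESTwt cells at ES and at NP, and RESTko and RESThet (heterozygous knock-out) cells at TN, so the control at TN carries a knock-out allele too. On 6 arrays of another type, wild-type cells of a mixed 129Sv-C57Bl/6 strain were followed through the same stages with 2 arrays at each. The labels call the arrays biological replicates without saying that they came from separate cultures, so p-values measure only the spread between these arrays, and the number of clones behind a genotype is not given. All values are log2 probe-set signals. The ES and NP differences between genotypes chose the genes and are given for these genes as a description with no test, and calls at ES and NP are counted only for genes outside the set; the TN difference and the mixed-strain course were used by no part of the choice and were tested.

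REST is a zinc-finger repressor that binds a DNA element called RE1 and keeps neuronal genes silent in cells that are not neurons. It recruits histone deacetylases and other corepressors to those sites, and its level is known to drop as stem cells become neurons. Genes that are higher without REST can be targets of it or can lie downstream of a target, and the arrays do not tell these apart.

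The Rest probe set gave a partial check of the labels. Rest was 8.96 ± 0.02 in RESTwt and 8.61 ± 0.07 in RESTko arrays at ES (SD, n = 3 each), a difference of -0.36 (SE 0.07, adjusted p = 0.00234, limma), while at NP the difference was -0.01 (adjusted p = 0.958, limma) and at TN it was 0.34 (adjusted p = 0.0187, limma) in the direction opposite to the labels. Directions below therefore rest on the array labels. Arrays of a group correlated with Pearson's r of 0.992 to 0.998 across genes. Of 5 stem cell markers, 0 were higher and 1 was lower at ES in RESTko arrays, where Zfp42 differed by -0.99 (adjusted p = 0.0406, limma); of the 7 primitive endoderm markers 1 was higher (Dab2) and 0 lower, of 6 trophoblast markers 0 were higher and 1 lower (Eomes), and of 6 fibroblast and 4 mesoderm markers 0 were called in either direction. Neuron markers were higher in RESTko arrays for 3 of 6 at ES (Snap25, Map2 and Tubb3, limma), with averages of 5.72 to 5.77 in RESTwt and 6.24 to 6.39 in RESTko arrays, and for 4 of 6 at NP. Of 5 progenitor markers 1, Nes, was higher at ES (0.75, adjusted p = 0.0129, limma). The primitive endoderm markers averaged 4.52 to 4.71 in RESTwt and 4.77 to 4.89 in RESTko arrays at ES, and the part of any of these cell types in the ES differences was not tested. Over all genes, 5.19% were called higher and 4.05% lower in RESTko at ES, and 4.32% higher and 3.71% lower at NP. Averages of a marker list are given as the lowest and highest among the 3 arrays of a group. The signals of these lists and of each gene group below come from whole cultures, in which fewer cells of a type and less RNA per cell cannot be told apart.

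At ES the difference between the genotypes had a median of 1.04 over the 80 genes, against -0.03 over all genes, and 43 genes were at least 2-fold higher. The 3 genes just inside the ES limit were Fermt1 (0.80), Rbms1 (0.80) and Slc5a5 (0.81), and the 3 just outside it were Cables1, Cysltr1 and Fgf15 (0.80 each, rounded). At NP the 3 just inside were Tspan2 (0.19), Epp13 (0.19) and Neurod1 (0.17), and just outside were Skiv2l (0.20), Adgrg6 (0.21) and Cemip2 (0.21). Within the groups the arrays were not alike over these genes: RESTwt array c was the lowest of its group for 49 of the 80 and RESTko array c was the lowest of its group for 49. Their mean signal was 6.12, 6.09 and 5.86 in RESTwt arrays a, b and c and 7.25, 7.16 and 7.0 in the RESTko arrays. Without RESTwt array c the same terms found 74 genes, 70 of them among the 80.

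**Figure D1:**
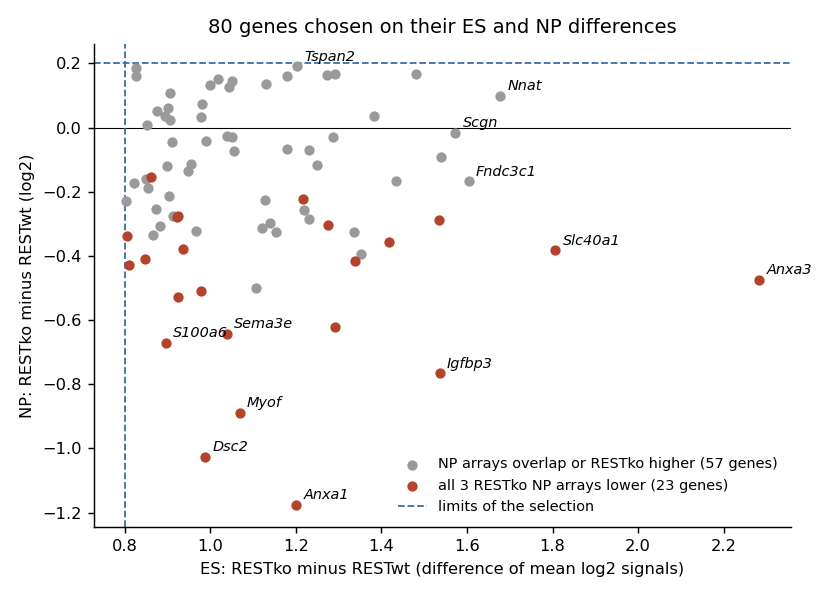
Difference between RESTko and RESTwt mean log2 signals at ES (horizontal axis) and NP (vertical axis), 1 point per gene for the 80 genes, with the selection limits dashed. Red points are the 23 genes whose 3 RESTko arrays were all below the 3 RESTwt arrays at NP; Anxa3 lies farthest to the right at 2.28 and Anxa1 lowest at -1.18.

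The NP side of the set leans downward, which an upper limit at NP with no lower limit builds in at least in part. The median and counts that follow are therefore a description only. The median difference at NP was -0.17, against 0.01 over all genes; 58 genes were below 0, 42 lay between -0.2 and 0.2, 38 were under -0.2 and 10 were under -0.5. For 23 genes all 3 RESTko arrays were below all 3 RESTwt arrays at NP, an arrangement found in 9.09% of all genes; since an upper limit on this difference was part of the choice, nothing is read from that excess. The name of a change only in ES thus fits the genes near 0, whereas Anxa1, Dsc2, Myof, Igfbp3, S100a6 and Sema3e had NP differences of -0.64 to -1.18.

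None of the genes belongs to a list of 59 measured genes that carry an RE1 element by general knowledge, while 22 of these 59 are among the 101 genes that were over 0.2 at NP. The set likewise holds 0 members of the lists of pan-neuronal, synaptic and dense-core vesicle genes. The limit at NP bears on this, because 45 of the 59 RE1 genes were called higher at NP (limma), and 27 were at ES. These lists were drawn up with earlier results of these arrays known, and genes outside them can be targets too. Over all 20 lists, 14 of the 80 genes and 31 of the 101 stood in at least 1.

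The promoters were searched for the letters of an RE1 element and of elements bound by other factors. RefSeq (GRCm38.p6) gave the 250 bases upstream of a start for 62 of the 80 genes and for 15614 genes in all. The left part of RE1, CAGCACC, stood on either strand in 2 of the 62 (Slc25a24 and Slc6a14), against 6.82% of all genes, and the right part, GGACAG, in 11, against 21.9%. Both parts 2 bases apart, as in the full element, stood in 0 of the 62 and in 0.0512% of all genes. The TEAD core GGAATG was in 15 (13.2% of all genes), the AP-1 letters TGANTCA in 7 (7.12%), and a CArG box, the element of serum response factor, in Glipr2, Igf2 and Scp2 (1.45%). A match is only a match of letters in this window, and RE1 elements often lie farther from the start. These 4 promoters are shown, 5′ to 3′ on the gene's strand and ending 1 base before the start, because Slc6a14 alone held both RE1 parts, Nnat, the third in the set at ES, is a gene of developing neurons, and Ccn1 and Scp2 were the 2 genes that were also higher at TN. Capitals mark the matches. They lie at chrX:21714650-21714899 (plus strand) for Slc6a14, chr2:157559828-157560077 (plus) for Nnat, chr3:145649986-145650235 (minus) for Ccn1 and chr4:108118548-108118797 (minus) for Scp2.
Slc6a14: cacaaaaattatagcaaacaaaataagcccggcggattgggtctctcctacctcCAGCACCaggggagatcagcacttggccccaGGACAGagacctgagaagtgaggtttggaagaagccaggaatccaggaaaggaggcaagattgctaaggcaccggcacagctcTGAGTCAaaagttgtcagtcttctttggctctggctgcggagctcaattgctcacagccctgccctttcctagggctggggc
Nnat: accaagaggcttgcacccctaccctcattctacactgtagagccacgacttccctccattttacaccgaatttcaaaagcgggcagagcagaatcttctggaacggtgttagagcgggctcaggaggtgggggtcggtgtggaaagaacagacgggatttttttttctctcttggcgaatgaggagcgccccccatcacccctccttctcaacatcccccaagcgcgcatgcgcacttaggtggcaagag
Ccn1: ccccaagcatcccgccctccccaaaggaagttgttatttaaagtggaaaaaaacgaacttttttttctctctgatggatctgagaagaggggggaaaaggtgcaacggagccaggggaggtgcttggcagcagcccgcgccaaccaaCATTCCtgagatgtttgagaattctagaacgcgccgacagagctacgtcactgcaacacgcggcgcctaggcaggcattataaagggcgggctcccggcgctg
Scp2: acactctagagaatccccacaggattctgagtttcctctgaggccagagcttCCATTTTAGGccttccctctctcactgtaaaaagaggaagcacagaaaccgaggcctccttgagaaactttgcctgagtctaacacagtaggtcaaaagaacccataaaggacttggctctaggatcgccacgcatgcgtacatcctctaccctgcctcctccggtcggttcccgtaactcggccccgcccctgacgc
In Slc6a14 the left RE1 part starts at -196, the right part at -165 and the AP-1 letters at -82 from the start of the gene, so the RE1 parts are farther apart than in a full element. Nnat holds none of the letters searched. Ccn1 holds the TEAD core on the opposite strand at -103, and Scp2 the CArG box at -198.

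The largest difference at ES was in a calcium-dependent membrane protein. Anxa3, an annexin that binds phospholipids, read 6.45, 6.36 and 5.05 in RESTwt arrays a, b and c and 8.49, 8.38 and 7.84 in RESTko, a mean difference of 2.28 or 4.87-fold. The RESTwt arrays spread over more than 1 unit here, with array c far below the others, yet the groups stayed apart. At NP the RESTwt arrays read 6.10, 6.50 and 6.12 and the RESTko arrays 5.55, 5.71 and 6.03, so the order of the genotypes was turned by a smaller margin of -0.47.

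Of the 6 annexins and other calcium-binding proteins, 4 had all RESTko arrays below the RESTwt arrays at NP. That arrangement was found in 23 of the 80 genes and in 9.09% of all genes. An upper limit at NP was part of the choice, so nothing is read from the count. Anxa5, the annexin that binds phosphatidylserine exposed on dying cells, was 6.68, 6.66 and 6.26 in RESTwt and 8.22, 8.16 and 7.51 in RESTko at ES, and differed by -0.17 at NP, where the arrays overlapped. Anxa1, an annexin with anti-inflammatory roles, was 6.30, 6.14 and 5.45 against 7.64, 7.52 and 6.35 at ES. Its highest RESTwt array nearly reached its lowest RESTko array. At NP it had the most negative difference of the set, -1.18, from 6.81, 7.46 and 7.27 in RESTwt to 6.00, 5.85 and 6.15 in RESTko, with no overlap. Myof, the ferlin myoferlin that takes part in membrane repair and fusion, was 1.07 higher at ES (5.71 ± 0.02 against 6.78 ± 0.09, SD, n = 3 each) and 0.89 lower at NP. S100a6, or calcyclin, was 0.90 higher at ES and read 5.19, 5.25 and 4.79 against 4.36, 4.50 and 4.36 at NP. Scgn, or secretagogin, a calcium sensor of neuroendocrine cells, behaved otherwise: it was 3.54, 3.49 and 3.66 against 5.28, 4.93 and 5.19 at ES, while every array of both genotypes at NP lay between 3.06 and 3.23. The list of 26 measured annexin and S100 genes holds 4 of the set (Anxa1, Anxa3, Anxa5 and S100a6). Of its other 22 genes, 1 was called higher and 0 lower at ES, and 0 higher and 4 lower at NP (limma).

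**Figure D2:**
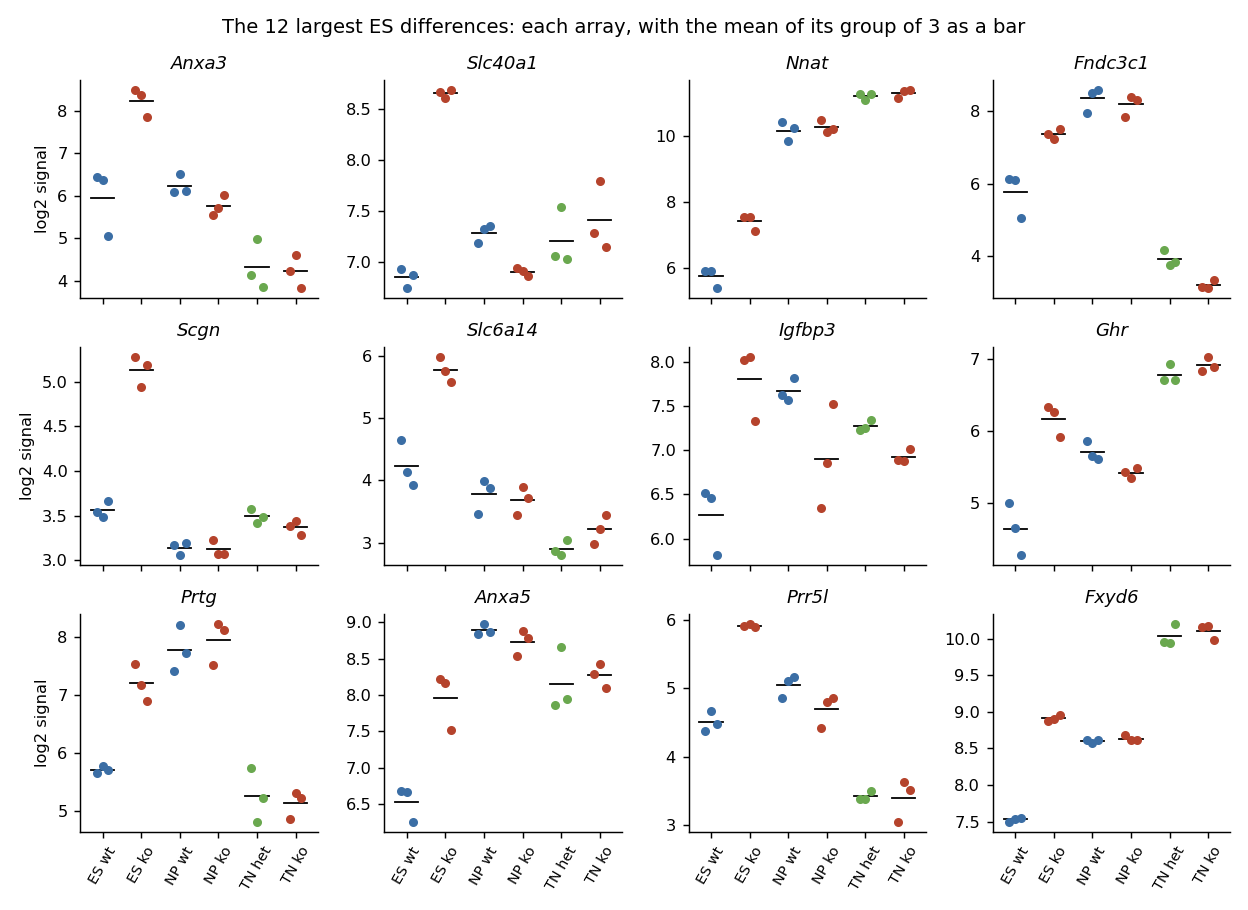
Log2 signal of each array (points) and the mean of each group of 3 (bars) for the 12 genes with the largest ES difference, in RESTwt (blue), RESThet (green) and RESTko (red) cells. The RESTko points lie above the RESTwt points at ES in every panel; at NP they overlap or lie lower, as in Slc40a1, and at TN Fndc3c1 shows RESTko points below those of RESThet.

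Among the 12 transporters, channels and proteins of ion handling, the stem cell differences ran from 0.81 to 1.81. Slc40a1, ferroportin, the iron exporter, had tight groups at ES: 6.93, 6.74 and 6.87 in RESTwt and 8.66, 8.61 and 8.69 in RESTko, or 3.50-fold. At NP it was 7.18, 7.32 and 7.35 against 6.93, 6.90 and 6.86, again without overlap and in the other direction (-0.38). Nnat, neuronatin, an imprinted proteolipid of the endoplasmic reticulum found in developing neurons, was 5.90, 5.90 and 5.38 against 7.55, 7.54 and 7.12 at ES, or 3.20-fold. By NP it read 9.84 to 10.42 in RESTwt and 10.11 to 10.47 in RESTko, far above either genotype at ES and overlapping. Slc6a14, a transporter of neutral and cationic amino acids, was 4.64, 4.13 and 3.93 against 5.99, 5.76 and 5.57 at ES and differed by -0.09 at NP. Fxyd6, a regulator of the sodium pump, had tight groups, 7.50, 7.54 and 7.55 against 8.87, 8.91 and 8.95, and at NP all 6 arrays lay between 8.58 and 8.68. Kcnj3, a G protein-gated potassium channel subunit, was 1.13 higher at ES and 0.13 higher at NP. The other 7 were the mitochondrial carriers Slc25a24 (5.06 ± 0.24 in RESTwt against 6.20 ± 0.31 in RESTko, SD, n = 3 each) and Slc25a40 (1.0), the inositol trisphosphate receptor Itpr2 (1.05), carbonic anhydrase Car2 (0.97), the zinc transporter Slc30a2 (0.95), Ano3 of the anoctamin family (0.85) and the iodide transporter Slc5a5 (0.81), given as ES differences except for Slc25a24. Slc5a5 was the second of the group whose NP arrays did not overlap, at -0.43.

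The 10 growth factors, receptors and guidance molecules split at NP. Igfbp3, which binds insulin-like growth factors outside the cell, was 6.52, 6.46 and 5.82 against 8.02, 8.06 and 7.33 at ES, and at NP it was 7.63, 7.57 and 7.81 against 6.34, 6.86 and 7.52. The RESTko arrays at NP spread over more than 1 unit but stayed below the RESTwt arrays (-0.77). Igf2, a growth factor it binds, was 1.02 higher at ES and 0.15 higher at NP, where all 6 arrays lay between 9.53 and 10.13. Ghr, the growth hormone receptor, was 4.99, 4.65 and 4.27 against 6.33, 6.27 and 5.92 at ES and -0.29 at NP without overlap. Prtg, protogenin, an immunoglobulin-family receptor of early neural tissue, was 5.67, 5.78 and 5.71 against 7.53, 7.17 and 6.90 at ES and 0.17 higher at NP. Sema3e, a secreted semaphorin, was 1.04 higher at ES and -0.64 at NP, from 6.30, 6.10 and 5.96 to 5.51, 5.57 and 5.36. The transmembrane semaphorin Sema6a was 1.18 higher at ES and differed by 0.16 at NP. Efnb2, an ephrin ligand, was 0.85 higher at ES and -0.41 at NP without overlap. Kit, the receptor of stem cell factor, was 8.18, 8.17 and 8.26 against 9.19, 9.11 and 9.03 at ES and 0.11 higher at NP. The remaining 2 were the G protein subunit Gna14 (1.25 at ES) and Plxdc2 (0.90).

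Of the 9 matrix and cell-surface genes, all had a negative NP difference, from -0.03 to -0.39. For 1 of them, Nt5e, all RESTko arrays were lower at NP, as in 9.09% of all genes. Fndc3c1, an X-linked gene with fibronectin type III domains, was 6.14, 6.12 and 5.04 against 7.37, 7.23 and 7.51 at ES, where RESTwt array c stood low, and -0.17 at NP. Efemp1, a fibulin of the extracellular matrix, was 4.0, 4.01 and 3.96 against 5.51, 5.64 and 4.88 at ES. Thbs1, thrombospondin, was 7.40, 7.28 and 6.85 against 8.65, 8.57 and 8.31, and Ccn1, a matricellular protein made in response to YAP and serum, was 8.31, 8.24 and 7.82 against 9.36, 9.37 and 9.18. Has2, the main hyaluronan synthase of early embryos, was 1.15 higher. Nt5e (CD73, an ectonucleotidase), Cd109, the membrane protease Tmprss13 and the metalloreductase Steap1 were 0.94, 0.91, 1.29 and 0.87 higher at ES. The list of 26 fibroblast genes holds Thbs1, Ccn1 and S100a6, and of its other 23 genes 1 was called higher and 0 lower at ES (limma). The defining fibroblast markers Dcn, Lum, Postn, Thy1, Pdgfrb and Fap averaged 3.76 to 3.96 in RESTwt and 3.73 to 3.85 in RESTko arrays at ES. At NP 2 of these 6 were called lower (Dcn at -1.16 and Lum at -0.83), with averages of 4.91 to 5.49 in RESTwt and 4.49 to 4.78 in RESTko arrays; their part in the NP differences was not tested.

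The 15 genes of adhesion, the actin cytoskeleton and junctions formed the largest group, and 8 of them had all RESTko arrays below the RESTwt arrays at NP. This held for 23 of the 80 genes and for 9.09% of all genes. With the upper limit at NP part of the choice, the count is a description only. Dsc2, a desmosomal cadherin, was 4.57, 4.77 and 4.50 against 5.97, 5.66 and 5.17 at ES and 6.35, 7.03 and 6.51 against 5.28, 5.85 and 5.68 at NP, a change from 0.99 to -1.03. Cgn, cingulin of tight junctions, went from 0.92 at ES to -0.53 at NP. The integrin subunit Itga3 was 7.42, 7.25 and 6.69 against 8.58, 8.47 and 8.18 at ES and 8.09, 8.62 and 7.98 against 7.45, 7.75 and 7.62 at NP, again with the order turned. Itga1, Parva (an adaptor of integrin-linked kinase), Lpp (a LIM protein of focal adhesions), Flnc (filamin) and Cald1 (caldesmon) were 0.93, 1.27, 1.34, 0.98 and 1.22 higher at ES and -0.28, -0.30, -0.41, -0.51 and -0.22 at NP. The others were Pstpip2, Phldb2, Tspan2, Pmp22, Ptpn14, Fermt1 and the tubulin Tubb6, whose NP differences ran from -0.31 to 0.19. Tspan2 (5.18, 4.72 and 5.15 against 6.34, 6.32 and 6.00 at ES) had the highest NP difference of the whole set. For Pmp22, a peripheral myelin protein also present in epithelia, the lowest RESTko array (6.60) lay close to the highest RESTwt array (6.45) at ES.

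Other junction genes were lower at NP too. Of the 28 genes besides Dsc2 and Cgn in a list of 30 epithelial junction genes, 8 were called higher and 0 lower at ES, and 0 higher and 20 lower at NP, where their median was -0.63 (limma). Among the 20 were Cdh1 (E-cadherin, -1.15), Cldn4 (-1.10) and Cldn6 (-1.04). Grhl2, a transcription factor of epithelia, was 0.63 higher at ES and -0.83 at NP. The trophoblast markers, another epithelial cell type, averaged 5.36 to 5.42 in RESTwt and 5.31 to 5.37 in RESTko arrays at ES. At NP 2 of the 6 were called lower, with averages of 5.44 to 5.67 and 5.19 to 5.32. The part of such cells in the NP values was not tested.

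Transcription factors, RNA-binding proteins and early response genes made up 9 of the set. Neurod1, a basic helix-loop-helix factor of neuronal differentiation, was 4.58, 4.38 and 3.89 against 5.55, 5.29 and 5.88 at ES; at NP it read 6.63 to 7.64 in RESTwt and 7.21 to 7.42 in RESTko, with RESTko inside the RESTwt range. Fosb, an AP-1 subunit, was 5.61, 5.87 and 5.71 against 7.09, 6.94 and 6.84 at ES and differed by -0.07 at NP. Myc was 6.84, 6.78 and 6.45 against 7.96, 7.76 and 7.66 at ES and had the lowest NP difference of the group, -0.50, with overlapping arrays. Atf3, Id2 (an inhibitor of basic helix-loop-helix factors), the orphan nuclear receptor Nr6a1, Zfp36l1 and Rbms1 (both RNA-binding) and the kinase Plk2 were 0.80 to 1.05 higher at ES. The early response list holds Fosb, Myc and Atf3, and of its other 16 measured genes 0 were called higher and 3 lower at ES (limma). The YAP target list holds Ccn1, Ptpn14 and Nt5e, and of its other 13 genes 4 were higher and 0 lower. The list of p53 target and apoptosis genes holds Plk2, and of its other 16 genes 7 were higher and 0 lower, with Aen at 1.15. The median ES difference over the genes outside the set was 0.18 in the YAP list and 0.20 in the p53 list, against -0.03 over all genes.

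The 6 metabolic genes were Naprt (nicotinate phosphoribosyltransferase), Acot1 (an acyl-CoA thioesterase), Dhrs7, Cyp2b23, Scp2 (sterol carrier protein) and Echdc2, with ES differences of 0.86 to 1.04 and NP differences of -0.25 to 0.02. The 3 immune genes were Irgm1 and Tap1, which respond to interferon, and Nlrp9b, at 1.23, 0.88 and 0.90. A list of 22 measured interferon response genes holds 0 of the set. At ES 1 gene of that list was called higher and 1 lower (limma), with a median difference of -0.01. Of the 10 genes in no group, Prr5l, a partner of the kinase complex mTORC2, had the largest difference, with 4.37, 4.67 and 4.48 against 5.91, 5.95 and 5.90 at ES and -0.36 at NP without overlap. Cryab (a small heat-shock protein), Tex15 (a germ cell gene), Snx1 (a sorting nexin), Glipr2, Dusp27, Vwa5a, Syde2, Ahi1 (a gene of the ciliary base) and Epp13 were 0.83 to 1.13 higher at ES.

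The stem cells without REST were compared with the later stages of wild-type cells. In RESTwt arrays 52 of the 80 genes were higher at NP than at ES and 28 lower. In RESTko arrays 21 were higher and 59 lower, a shift that the choice of genes builds in. The median signal of an array also rose, from 5.46 to 5.52 at ES to 5.80 to 5.86 at NP in RESTwt. In RESTko it was 5.50 to 5.53 at ES and 5.84 to 5.87 at NP. The counts in this paragraph were not corrected for that rise, so a small rise of a gene cannot be told from it. Shares over all genes are not given. The RESTko mean at ES lay between the RESTwt means at ES and NP for 22 genes, such as Nnat, Fndc3c1 and Prtg, and above both for 58, such as Anxa3, Slc40a1 and Scgn.

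At TN few of these genes passed the test. With RESThet cells as the control, 2 of the 80 genes were called higher and 0 lower (limma, adjusted p under 0.05), where 0.356% of all genes were called higher and 0.802% lower. Without adjustment, 4 were higher and 6 lower at p under 0.05 (limma). The share of all genes under this unadjusted limit is not given, so nothing is read from these 2 counts. The median TN difference was 0.01, against -0.02 over all genes, with 41 genes above 0 and 39 below. Of the 101 genes that were over 0.2 at NP, 2 were higher and 1 lower at TN. In this comparison 6 of the 80 had all RESTko arrays above all RESThet arrays (5.83% of all genes) and 10 had all of them below (10.2%), which is 7.5% and 12.5% of the set.

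Scp2 and Ccn1 were the 2 genes called at TN. Scp2, a carrier of sterols and fatty acids in peroxisomes, read 6.42, 6.32 and 6.24 in RESThet arrays and 6.96, 7.03 and 7.05 in RESTko arrays. It was 0.69 higher (SE 0.09, adjusted p = 0.000543, limma), with tight groups and no overlap. At ES it had read 7.56, 7.40 and 7.18 against 8.23, 8.20 and 8.29, and at NP 7.92, 7.67 and 7.70 against 7.62, 7.59 and 7.62, so the gene was higher at ES and TN and slightly lower between (-0.16). Ccn1 read 6.54, 6.12 and 5.70 against 6.96, 7.03 and 6.78 and was 0.80 higher (SE 0.16, adjusted p = 0.0176, limma). The RESThet arrays of Ccn1 spread widely: without RESThet array c the difference was 0.60 (adjusted p = 0.078, limma), and the call was also lost without RESTko array a (0.79, adjusted p = 0.066) or array b (0.75, adjusted p = 0.0646), and on the TN arrays alone (adjusted p = 0.18). Ccn1 is also on the fibroblast list, and at TN the 6 fibroblast markers averaged 7.68 to 8.18 in RESThet and 8.20 to 8.37 in RESTko arrays, with 0 of 6 called; their part in the Ccn1 value was not tested.

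The largest lower values at TN did not pass the test. Fndc3c1 read 4.18, 3.74 and 3.83 in RESThet and 3.16, 3.13 and 3.33 in RESTko arrays, without overlap, a difference of -0.71 (SE 0.24, adjusted p = 0.193, limma). Acot1 differed by -0.39 (adjusted p = 0.403, limma) with overlapping arrays, and Has2 by -0.38 (adjusted p = 0.391, limma) with arrays that did not overlap. The gene with the largest ES difference, Anxa3, was at -0.10 (SE 0.33, adjusted p = 0.956, limma), where both genotypes spread from 3.84 to 4.99 between them.

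**Figure D3:**
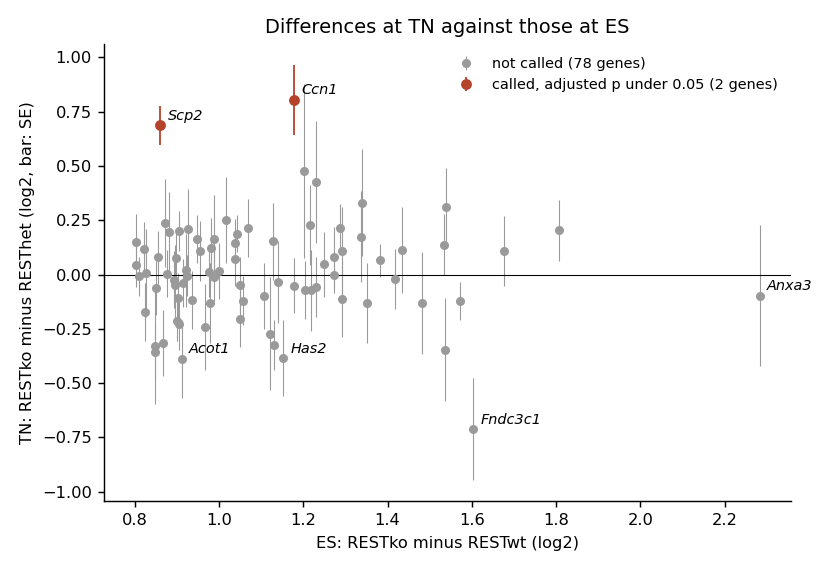
Difference between RESTko and RESThet at TN with its standard error (vertical axis) against the difference between RESTko and RESTwt at ES (horizontal axis), both on the log2 scale, for the 80 genes. Scp2 (0.69) and Ccn1 (0.80) are the genes called at TN; the other 78 scatter around 0 down to Fndc3c1 at -0.71.

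The mixed-strain wild-type course measured 78 of the 80 genes, all but Cyp2b23 and Fermt1. From ES to NP 20 rose and 35 fell (limma, adjusted p under 0.05; background 19.9% and 19%), with a median of -0.33 against -0.01 over all genes. From NP to TN 9 rose and 37 fell (background 21.7% and 29.1%), with a median of -0.42 against -0.09. Of the 101 genes that were over 0.2 at NP, 98 were measured in the course. Of these, 45 rose and 21 fell from ES to NP, and 67 rose and 18 fell from NP to TN, where the median was 1.65. Whether the 2 sets differ in these shares was not tested.

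Both steps together give the shape of each gene's course. Of the 78, 12 fell in both steps (15.4% against 8.70% of all genes): Anxa1, Anxa3, Myof, Thbs1, Neurod1, Cryab, Tubb6, Vwa5a, Dhrs7, Nr6a1, Steap1 and Echdc2. Another 20 fell from ES to NP and were not called after (25.6% against 6.63%), and 14 rose and then fell (17.9% against 7.55%): Anxa5, Fndc3c1, Ghr, Prtg, Phldb2, Slc25a24, Pmp22, Id2, Snx1, Igf2, Ptpn14, Dsc2, Scp2 and Zfp36l1. For Ptpn14 the first step was 0.51 on its brightest probe set and -0.21 on the mean of its probe sets. Only Nnat, Tspan2 and Ahi1 rose in both steps (3.85% against 7.65%), and 9 were called in neither (11.5% against 37.9%). The set thus held several kinds of course.

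The steepest falls from ES to NP were in S100a6 (-5.39, SE 0.16, adjusted p = 7.98e-08, limma), Tex15 (-3.85), Gna14 (-3.77), Epp13 (-3.16) and Anxa3 (-3.06). S100a6 went from 9.38 and 9.09 at ES to 3.84 and 3.85 at NP and stayed there, with 3.77 and 4.04 at TN. Anxa3 went from 8.33 and 8.32 to 5.48 and 5.04 and then to 2.87 and 2.85. The largest rises were in Igf2 (4.57, SE 0.35, adjusted p = 1.45e-05, limma), Parva (2.39), Pmp22 (2.36), Nnat (2.31) and Efnb2 (2.19). Igf2 read 6.78 and 7.06 at ES, 11.49 and 11.51 at NP, and 8.71 and 10.05 at TN.

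From NP to TN the steepest falls were in Fndc3c1 (-5.90, SE 0.13, adjusted p = 2.87e-08, limma), Prtg (-5.19), Tubb6 (-4.28), Ccn1 (-3.78) and Neurod1 (-3.62). Fndc3c1 read 8.06 and 8.08, then 9.52 and 9.50, then 3.73 and 3.50, so that it was highest in progenitors. Neurod1 read 8.76 and 8.80 at ES, 8.18 and 8.47 at NP and 4.74 and 4.67 at TN. The rises were led by Ahi1 (3.89, SE 0.14, adjusted p = 1.02e-07, limma), Nnat (2.74), Tspan2 (1.54), Fxyd6 (1.39) and Plxdc2 (1.28). Ahi1 read 7.35 and 7.47 at NP and 11.29 and 11.30 at TN, and Nnat rose from 7.41 and 7.44 through 9.59 and 9.87 to 12.37 and 12.58.

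**Figure D4:**
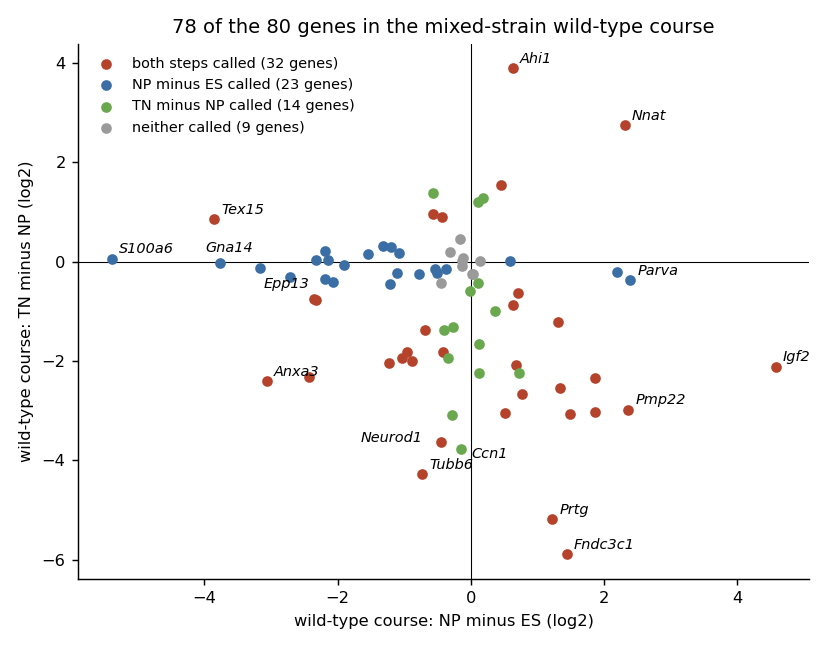
Change of mean log2 signal from ES to NP (horizontal axis) and from NP to TN (vertical axis) in the mixed-strain wild-type cells, 2 arrays per stage, for the 78 measured genes, coloured by which steps were called. Fndc3c1 and Prtg are lowest at -5.90 and -5.19 in the second step, S100a6 is farthest left at -5.39, and Nnat and Ahi1 are in the upper right.

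By role, 4 of the 6 annexins and calcium-binding proteins fell from ES to NP and 4 of 6 from NP to TN, with 1 rise, that of Anxa5. Of the 14 measured genes in the adhesion, actin and junction group, 6 rose and 3 fell from ES to NP, and 1 rose and 9 fell from NP to TN. The falls of both steps include the tubulin Tubb6, which is not an adhesion or actin gene. Of the 9 matrix and surface genes 5 fell in each step, while the 10 growth factors, receptors and guidance molecules were even, with 4 up and 4 down, then 3 up and 3 down. Over all genes, 19.9% rose and 19% fell from ES to NP, and 21.7% rose and 29.1% fell from NP to TN. Whether any group departs from these shares was not tested. The roles were assigned after the names of the genes were known.

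The 18 arrays and the course can be set side by side, since they share no sample. The 20 genes that rose from ES to NP in the course were all higher at NP than at ES in RESTwt means, and 17 were in RESTko means. Of the 35 that fell in the course, 19 were lower at NP in RESTwt means and 34 in RESTko means. So 16 genes that fell in the mixed-strain cells were higher at NP than at ES in RESTwt cells. The choice of genes favours low RESTwt values at ES and high ones at NP, and the reverse in RESTko. These counts are thus partly built in, and the array medians of both genotypes also rose from ES to NP. Neurod1 was one of these 16 genes: from ES to NP its mean changed by -0.46 in the mixed-strain cells and by 2.87 in RESTwt cells. The platforms differ and their levels are not compared, only the direction within each.

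The genes lay on 19 chromosomes, with 10 of the 80 on chromosome 2 (8.71% of all genes), 8 each on chromosomes 3 and 9 (4.74% and 5.85%) and 0 on chromosome 14 (3.52%). The 5 on chromosome 5, which also carries Rest, were Anxa3, Sema3e, Kit, Slc25a40 and Steap1, against 5.74% of all genes.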

How the data were processed

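The authors deposited log2 probe-set signals made with oligo 1.14.0, per the submitters' processing notes; the way of background correction, normalization and summarization is not given in the sources used here. TRIzol and then RNeasy columns had been used for the RNA, per the labels' protocols. The values were used as deposited. Probe sets with a single symbol (21789 of 35556 on the 18 arrays, 34958 of 45101 on the 6) were named through GRCm38.p6 RefSeq gene numbers, and each gene took its probe set of highest mean (19938 and 18194 genes). A mean per group was fitted over all arrays of a platform with lmFit and eBayes of limma 3.58.1 (R 4.3.3, 2-sided), which gave differences and standard errors, with p-values adjusted by Benjamini-Hochberg over all genes and calls at 0.05. It was tested on simulated data. The platforms were never combined. Named genes are the 12 with the largest ES differences, the 6 lowest at NP, those called or most different at TN, up to 5 per direction and step of the course, those nearest the limits, and members of the 20 gene lists; others are named by role or after their values were seen. The members and lists were chosen with earlier results of these data known. The number of arrays limits the precision. Alternatives were fits of compared groups alone, arrays left out, quantile normalization and the mean over probe sets. Others were omission of the dimmest 30% of genes, a replicate block and, at TN, array weights.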

Additional observations from a re-analysis of the deposited data

Results flagged for a closer look

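Some of the 80 genes were higher in all 3 RESTko arrays at ES and lower in all 3 at a later stage. Whether the differences of the stages differ was not tested, and at NP an upper limit was part of how the genes were chosen. At NP, 23 genes had this arrangement (9.09% of all genes were lower in all 3 RESTko arrays there). The junction, adhesion and actin genes among them were Dsc2 (-1.03), Itga3 (-0.62), Cgn (-0.53), Flnc (-0.51), Lpp (-0.41), Parva (-0.30), Itga1 (-0.28) and Cald1 (-0.22). The calcium-binding genes were Anxa1 (-1.18), Myof (-0.89), S100a6 (-0.67) and Anxa3 (-0.47). Signalling genes were Igfbp3 (-0.77), Sema3e (-0.64), Efnb2 (-0.41) and Ghr (-0.29), and the transporters were Slc5a5 (-0.43) and Slc40a1 (-0.38). The others were Nt5e (-0.38), Prr5l (-0.36), Rbms1 (-0.34), Vwa5a (-0.28) and Scp2 (-0.16). At TN, against RESThet cells, the 10 such genes were Fndc3c1 (-0.71), Has2 (-0.38), Efnb2 (-0.36), Igfbp3 (-0.35), Kcnj3 (-0.32), Steap1 (-0.32), Pmp22 (-0.27), Nlrp9b (-0.22), Id2 (-0.21) and Plxdc2 (-0.11), of which 0 were called by limma. That is 12.5% of the set, and 10.2% of all genes had the same arrangement at TN. Efnb2 and Igfbp3 were lower without overlap at both NP and TN.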

How the results depend on the processing

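The number of genes the selection finds was 43 with a limit of 1.0 at ES and 42 with NP differences held between -0.2 and 0.2, and 74 to 103 when 1 ES or NP array was left out, with at least 70 of the 80 kept. After quantile normalization it was again 80, but only 63 of the original 80 were among them. At TN the count of genes called higher went from 2 to 1 on the TN arrays alone, where Ccn1 kept its difference of 0.80 but had an adjusted p of 0.18 (limma), and was 1 to 2 when 1 array was left out, with Ccn1 at 0.60 to 1.01 (adjusted p 0.00184 to 0.078, limma); the cause was not tested. Scp2 was called in all 12 alternatives (0.65 to 0.77), and 0 genes were called lower in any. Over the alternatives 15 to 20 genes rose and 27 to 36 fell from ES to NP in the course, and 9 to 11 rose and 35 to 37 fell from NP to TN. With a replicate block, the letters gave 2 genes higher and 0 lower at TN, and 20 and 34, then 9 and 37, in the course. Same-letter arrays at TN did not deviate together (r of -0.14, 0.04 and 0.08). For letters a, b and c, r was 0.11, 0.15 and -0.05 at ES and 0.40, 0.31 and 0.01 at NP. Arrays of different letters at NP had r of -0.35 to 0.11, so some pairing by letter at NP is possible and was not tested. At ES, array c was the lowest of its group for 49 of the 80 genes in each genotype. Whether this reflects pairing by letter was not tested. With the mean over probe sets 4 genes turned sign in each step of the course, of which Ptpn14 (0.51 to -0.21, first step) had been called. Arrays carry no read depth, and with 2 arrays per stage the course may miss changes under 2-fold.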
